A study of Mus musculus with 2 samples.

Results

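The genes described here code for the matrix of tooth enamel and dentin: Amelx, Ambn, Enam, Klk4, Dspp, Amtn, Odam and Tuft1. They are 8 of 23930 amplicon targets, and a target was found for each of them by its symbol. They were chosen by earlier readings of the same CPM values, which showed tooth genes higher in 1 of the libraries, so their levels and their difference between the libraries are given as a description with no test. The series holds 2 RNA libraries of cranial sutures, the fibrous joints between the bones of the skull vault, from wildtype mice aged 3 days, named library 1 and library 2 after their titles. The sampled tissue covered the coronal, sagittal and lambdoid sutures, and both libraries carry batch number 1. No treatment or mutation is named. Nothing states that each library came from its own animals, and part of the spread may therefore be technical. The cell type label reads suture stem cells, whereas the protocol describes RNA of the tissue and names no sort, so the libraries were read as bulk tissue. In bulk RNA, more cells of a type and more RNA per cell cannot be told apart.

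Enamel is built by ameloblasts, epithelial cells of the tooth germ that secrete amelogenin, ameloblastin and enamelin and later degrade this matrix with proteases while the mineral hardens. Dentin is laid down beneath it by odontoblasts, mesenchymal cells whose matrix resembles that of bone. Most of these matrix proteins belong to the secretory calcium-binding phosphoproteins (SCPP), a family that also includes the bone proteins osteopontin and bone sialoprotein and the caseins of milk. In rodents the incisors grow throughout life and hold every stage of enamel formation. No tooth or jaw tissue is named among the sampled tissues.

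Library 1 held 5663344 reads and library 2 held 15802610, recovered from the deposited CPM values (reads of a target scaled to the library total). A count of 0 allows up to 3 reads, or 0.530 CPM for library 1 and 0.190 CPM for library 2. Intervals and this limit cover counting error only, since panel reads carry no molecular identifiers. The panel reads 1 short amplicon per gene, so levels do not grow with gene length, but amplicons differ in efficiency and the order of different genes is less certain than the ratio of 1 gene between libraries. Of 9 measured markers of suture mesenchyme, 8 reached 1 CPM in both libraries, beside 55.0% of all targets. Thy1 stood at 162 CPM, Twist1 at 98.4 CPM and Gli1 at 48.2 CPM on average. Pthlh was below 1 CPM in both, and no target was used for Prrx1.

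The members lie on 4 chromosomes. In GENCODE M21 on GRCm38, the assembly of mm10, Odam (chromosome 5 from 87885029 to 87894174), Amtn (88376108 to 88385916), Ambn (88455991 to 88468531) and Enam (88487975 to 88506049) follow each other on the plus strand among the casein and saliva genes. Dspp (104170712 to 104180127) lies farther along chromosome 5, 22.5 kb before the bone and dentin gene Dmp1. Amelx lies on chromosome X from 169176114 to 169187200 on the minus strand, inside the plus-strand gene Arhgap6, and none of its 11 annotated exons overlaps an exon of Arhgap6. Klk4 lies on chromosome 7 from 43881160 to 43885804 among other kallikreins, and Tuft1 on chromosome 3 from 94612757 to 94658872. No source used here places the amplicons within the genes.

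RefSeq promoters (GRCm38.p6) were held for 6 of the 8 members, Dspp and Tuft1 being the others. The 5 SCPP members among them share a stretch just before the RefSeq gene start. These sequences are therefore shown from 100 bases before that start to 50 bases after it, with the letters TGATTGG in capitals. TGATTGG is an inverted CCAAT box with the 2 letters TG before it. It was chosen for display after the sequences had been read. The windows are chrX:169187160-169187309 (minus strand) for Amelx, chr5:88455891-88456040 (plus strand) for Ambn, chr5:88487875-88488024 (plus strand) for Enam, chr5:88376008-88376157 (plus strand) for Amtn and chr5:87884910-87885059 (plus strand) for Odam. Those of the bone genes Ibsp, at chr5:104299187-104299336 (plus strand), and Spp1, at chr5:104435011-104435160 (plus strand), are added for comparison.
Amelx: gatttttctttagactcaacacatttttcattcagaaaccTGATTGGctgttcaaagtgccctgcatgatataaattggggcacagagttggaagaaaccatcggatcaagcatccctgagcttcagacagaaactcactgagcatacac
Ambn: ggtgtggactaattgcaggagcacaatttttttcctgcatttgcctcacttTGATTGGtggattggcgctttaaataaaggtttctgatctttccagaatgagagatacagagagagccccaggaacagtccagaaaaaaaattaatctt
Enam: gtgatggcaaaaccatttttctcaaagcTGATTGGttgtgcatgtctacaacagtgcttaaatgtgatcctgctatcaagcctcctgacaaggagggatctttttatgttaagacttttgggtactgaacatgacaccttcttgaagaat
Amtn: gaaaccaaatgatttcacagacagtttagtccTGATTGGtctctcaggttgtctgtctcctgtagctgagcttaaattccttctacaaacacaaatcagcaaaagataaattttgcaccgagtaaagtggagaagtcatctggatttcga
Odam: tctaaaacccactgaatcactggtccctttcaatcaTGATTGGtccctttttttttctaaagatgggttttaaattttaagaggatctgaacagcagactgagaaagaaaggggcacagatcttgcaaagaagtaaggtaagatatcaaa
Ibsp: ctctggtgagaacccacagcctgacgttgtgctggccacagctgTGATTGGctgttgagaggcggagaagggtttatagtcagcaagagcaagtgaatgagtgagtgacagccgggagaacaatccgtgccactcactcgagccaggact
Spp1: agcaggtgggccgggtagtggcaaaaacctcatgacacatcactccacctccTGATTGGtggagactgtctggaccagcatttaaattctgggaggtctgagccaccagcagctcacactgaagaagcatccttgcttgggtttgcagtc

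Positions were counted from the RefSeq start, which differs from the GENCODE start for some genes, among them Odam and Amelx. For Ibsp the whole window lies after the GENCODE start at 104299171. From the RefSeq start, the first base of TGATTGG lay at -60 in Amelx, -49 in Ambn, -72 in Enam, -68 in Amtn and -64 in Odam. Each time it was on the strand of the gene. It lay at -56 in Ibsp, -48 in Spp1 and -23 in Mepe, another bone SCPP gene, and at -103 before 1 of the 2 starts listed for Dmp1. The Klk4 promoter did not hold it on either strand. Within the 100 bases before the start and on the strand of the gene, 765 of 32851 promoters (2.33%) held these letters, and 7.82% held them anywhere in their 300 bases on either strand. None of 6 milk and saliva SCPP genes and none of 16 other enamel genes with a promoter in the table held them in that stretch. TATAAA was found in 2 of the 6 member promoters, those of Amelx and Enam, against 13.6% of all promoters on either strand. TGTGGT, the core of the Runx motif, was found in 1, that of Odam, against 16.8%. A match describes letters and shows no binding. Among targets averaging 1 CPM or more, members left out, 427 had TGATTGG in the 100 bases upstream, and 9.84% of these were over 2-fold higher in library 2. The share was 11.0% among 10202 targets whose promoters lacked it there.

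The structural proteins of enamel were the best measured members. Amelx, which codes for amelogenin, the main protein of forming enamel, stood at 91.3 CPM in library 1 (517 reads, exact 95% Poisson interval 83.6 to 99.5) and 380 CPM in library 2 (6009 reads, interval 371 to 390), with a mean of 236 CPM ± 204 (SD, n = 2). Library 2 was 4.17-fold higher, with an exact 95% interval of the ratio from 3.81 to 4.57. Amelx ranked 1834 among all targets in library 1 and 240 in library 2. Arhgap6, the gene around it, stood at 7.77 CPM in library 1 and 5.19 CPM in library 2, far below Amelx and in the other direction. Whether the counting used strand is unknown, so reads of the 2 genes could be told apart by position alone.

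Ambn, which codes for ameloblastin, an adhesion protein of the ameloblast surface and enamel matrix, stood at 17.3 CPM in library 1 (98 reads) and 111 CPM in library 2 (1755 reads). The mean was 64.2 CPM ± 66.3 (SD, n = 2) and the ratio 6.42 (interval 5.23 to 7.95). Enam, which codes for enamelin, a large protein needed for enamel crystals to lengthen, stood at 7.06 CPM (40 reads) and 16.3 CPM (258 reads), a mean of 11.7 CPM ± 6.55 (SD, n = 2) and a ratio of 2.31 (interval 1.65 to 3.31). The Poisson intervals of the 2 libraries did not overlap for any of the 3 structural genes, which were chosen with this contrast known. The share of all targets without such overlap was not computed, so this does not set them apart. By an exact binomial test of the reads, 8600 of all 23930 targets differed at an adjusted p below 0.05. The ratios of the 3 structural genes differed from each other beyond counting error, since the ratio intervals of Amelx, Ambn and Enam did not overlap.

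**Figure D1:**
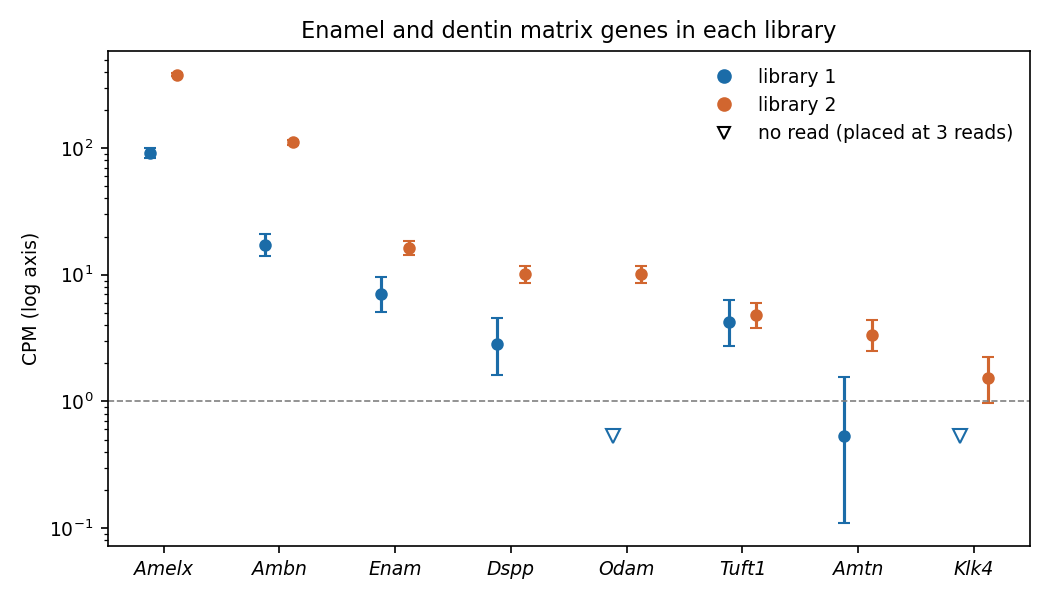
CPM of each gene in library 1 and library 2 on a log axis, with exact 95% Poisson intervals for counting error. Open triangles mark a gene with no read, placed at the level of 3 reads, and the dashed line is 1 CPM. Amelx stands at 91.3 and 380 CPM, Odam and Klk4 have no read in library 1, and the intervals of Tuft1 overlap.

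The genes of late enamel formation were low or without reads in library 1. Odam codes for a protein of maturation-stage ameloblasts and of the epithelium that seals the gum to the tooth. It had 0 reads in library 1 and 160 reads in library 2, at 10.1 CPM (interval 8.62 to 11.8). At the level of library 2, 57.3 reads would have fallen in library 1. Odam was at least 15.4-fold higher in library 2, the lower bound of the exact 95% interval of the ratio. It was 1 of 13 targets with no read in library 1 among the 9208 at 10 CPM or more in library 2. The other 12 included Lcn11 (1001 CPM in library 2), Obp2a (86.2 CPM) and Obp1a (18.0 CPM), which code for lipocalins, and these were picked after their values were seen.

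Amtn, which codes for amelotin, a protein at the surface of maturing enamel, had 3 reads in library 1 (0.530 CPM, interval 0.109 to 1.55) and 53 in library 2 (3.35 CPM, interval 2.51 to 4.39). The ratio was 6.33, with a wide interval from 2.05 to 31.7. Klk4 codes for the serine protease that clears the matrix during maturation. It had 0 reads in library 1 and 24 in library 2 (1.52 CPM, interval 0.973 to 2.26), and was at least 2.16-fold higher in library 2 by the same lower bound. At the level of library 2, 8.60 reads would have fallen in library 1. For both genes the Poisson intervals of the 2 libraries did not overlap, again with no share over all targets computed. Few reads fix the size of the difference.

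Dspp codes for dentin sialophosphoprotein, the precursor of the main acidic proteins of dentin. It stood at 2.83 CPM in library 1 (16 reads) and 10.1 CPM in library 2 (159 reads), a mean of 6.44 CPM ± 5.12 (SD, n = 2) and a ratio of 3.56 (interval 2.13 to 6.38). Its interval covers the ratio of Amelx and overlaps the intervals of Ambn and Enam, so at this depth the dentin gene was not told apart from these enamel genes in the size of its difference. Tuft1 codes for tuftelin, first found in enamel and known to be made in many other tissues. It stood at 4.24 CPM (24 reads) and 4.81 CPM (76 reads), with a mean of 4.52 CPM ± 0.404 (SD, n = 2), and its ratio of 1.13 had an interval from 0.709 to 1.88, which holds 1. Among the 8 members, Tuft1 alone had Poisson intervals that overlapped between the libraries. The share of all targets without overlap was not computed, so this does not set the members apart. By an exact binomial test of the reads, 8600 of all 23930 targets differed between the libraries at an adjusted p below 0.05. The interval of the Tuft1 ratio overlapped that of Enam and lay below those of the other 6.

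In all, 5 of the 8 members reached 1 CPM in both libraries and 8 of 8 reached it in library 2. By mean level the order was Amelx, Ambn, Enam, Dspp, Odam, Tuft1, Amtn and Klk4. In library 2 the Poisson intervals of Dspp and Odam overlapped, as did those of Tuft1 and Amtn. In library 1 Tuft1 stood above Dspp with overlapping intervals. The 12 genes of tissues that were not sampled (testis, islet, retina and kidney) show the level of absent genes, with sums of 3.71 and 3.54 CPM over the whole list and Prm2 highest on average at 2.29 and 0.506 CPM. Amtn in library 1 lay within that range, and the interval of Dspp in library 1, 1.61 to 4.59 CPM, included the level of Prm2 there. Klk4 in library 2 stood at 1.52 CPM beside 1.08 CPM for Gnat1, the highest of that list in library 2, which its interval includes.

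A difference between the libraries was called where log2(CPM + 1) differed by over 1, a 2-fold change on that scale, among targets averaging 1 CPM or more. Of 14097 such targets, 11.2% were called higher in library 2 and 7.49% lower. Among the members, 7 passed the filter, Amtn and Odam through library 2, and 6 of them were called higher in library 2, none lower. Klk4 missed the filter at a mean of 0.760 CPM. The members were chosen with this contrast known, so their count is not read against the background. The differences on this scale were 3.48 for Odam, 2.61 for Ambn, 2.05 for Amelx, 1.53 for Dspp, 1.51 for Amtn, 1.10 for Enam and 0.15 for Tuft1. At a pseudocount of 5 CPM, 3 members were called, Amelx, Ambn and Odam. By mean level, 17.4% of targets from 1 to 10 CPM were called higher in library 2 and 7.91% lower. The shares were 8.33% and 7.14% from 10 to 100 CPM, and 5.82% and 7.84% at 100 CPM or more.

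**Figure D2:**
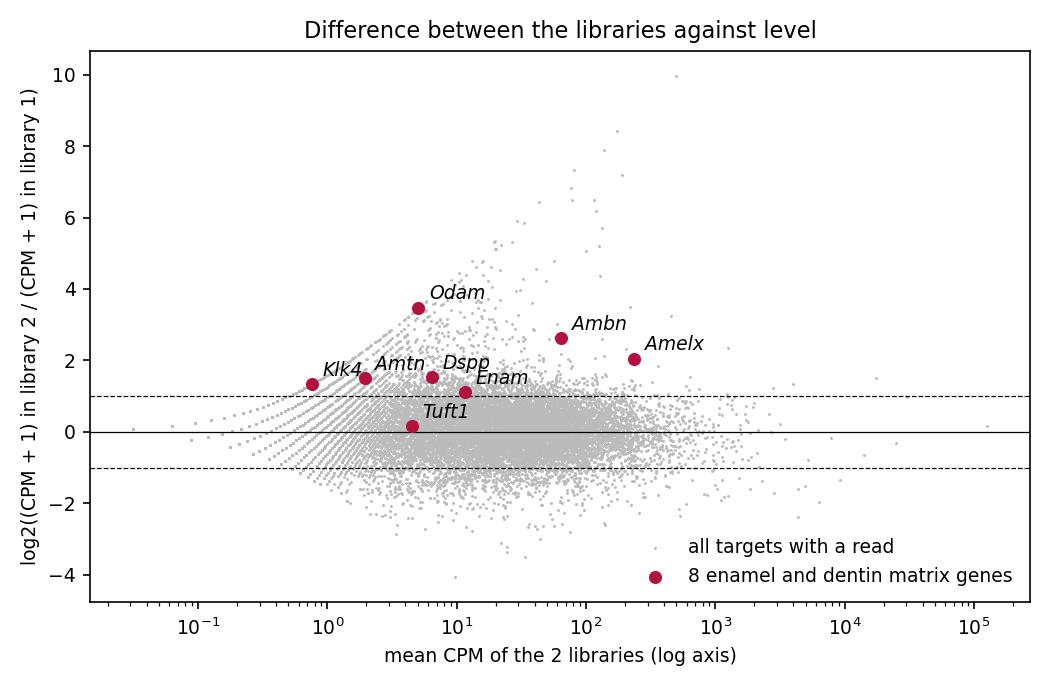
Difference between the libraries, log2((CPM + 1) in library 2 over library 1), against the mean CPM on a log axis, for every target with a read (grey) and for the 8 genes (red). Dashed lines mark 2-fold. Odam at 3.48, Ambn at 2.61 and Amelx at 2.05 lie farthest above the line, and Tuft1 at 0.15 lies near 0.

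Together the members took 698 reads in library 1 (123 CPM) and 8494 in library 2 (538 CPM), a ratio of 4.36 (interval 4.04 to 4.72). Without Amelx the remaining 7 gave a ratio of 4.92 (interval 4.23 to 5.75). The make-up of this sum differed between the libraries. Amelx took 74.1% of the member reads in library 1 (exact Clopper-Pearson 95% interval 70.6% to 77.3%) and 70.7% in library 2 (69.8% to 71.7%), and these intervals overlapped, as did those of Dspp at 2.29% and 1.87%. Ambn took 14.0% in library 1 (11.5% to 16.8%) and 20.7% in library 2 (19.8% to 21.5%). Odam took 0 of 698 reads in library 1, where the same interval reaches 0.527%, and 1.88% in library 2 (1.61% to 2.20%). Enam went the other way, with 5.73% in library 1 (4.13% to 7.72%) and 3.04% in library 2 (2.68% to 3.42%), and so did Tuft1, with 3.44% and 0.895%. In reads, Ambn exceeded Enam 2.45 to 1 in library 1 (interval 1.68 to 3.63) and 6.80 to 1 in library 2 (interval 5.97 to 7.78). The members thus did not keep 1 fixed ratio to each other in the 2 libraries.

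Along chromosome 5 the members stood among genes with and without reads. In the casein cluster Csn1s1, Csn2, Csn1s2a and Csn1s2b had no read in either library, and neither had Prr27, the gene before Odam, nor Prol1, the gene before Amtn, nor Jchain, the gene after Enam. Csn3, which codes for kappa-casein and follows Odam, had 2 reads in library 1 and 68 in library 2 (0.353 and 4.30 CPM, ratio 12.2, interval 3.25 to 103). In the bone and dentin cluster, Dspp was far below Sparcl1, Dmp1, Ibsp and Spp1 and above Mepe. Sparcl1 before it stood at 59.0 and 71.1 CPM. Dmp1, a matrix protein of osteocytes and odontoblasts, stood at 419 and 598 CPM, Ibsp, bone sialoprotein, at 386 and 873 CPM, and Spp1, osteopontin, at 1655 and 3888 CPM. Mepe, a matrix protein of osteocytes, had 0 and 8 reads. Of the bone SCPP genes averaging 1 CPM or more, 2 of 3 were called higher in library 2, beside 11.2% of all such targets. These were Spp1, by 1.23, and Ibsp, by 1.18 on the log2 scale, and Dmp1 differed by 0.51.

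**Figure D3:**
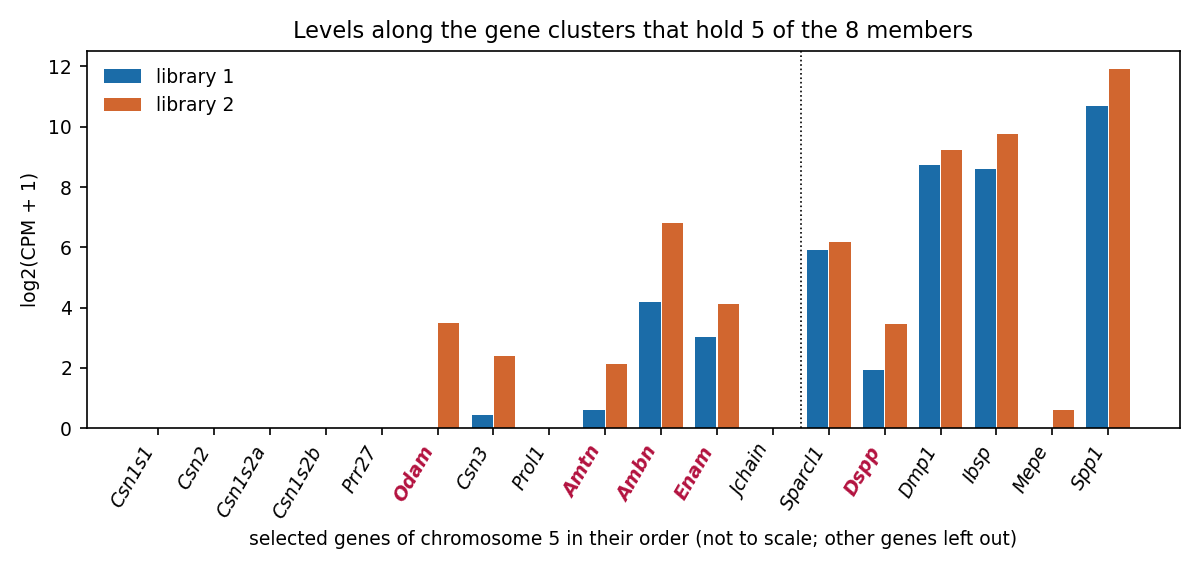
log2(CPM + 1) in library 1 (blue) and library 2 (orange) for selected genes of chromosome 5 in their order, with members in red and a dotted line between the enamel cluster and the dentin and bone cluster. Odam, Amtn, Ambn and Enam stand among genes without a read, such as Csn2 and Jchain, and Dspp stands below Dmp1, Ibsp and Spp1.

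Some other genes of enamel formation were called higher in library 2. In a list of 20 proteases, kinases, transporters and adhesion genes, chosen with earlier results known, 18 averaged 1 CPM or more. Of these, 4 were called higher in library 2, none lower and 14 neither, beside 11.2% higher and 7.49% lower over all such targets. The median difference was 0.62, beside 0.07 for all targets averaging 1 CPM or more. The 4 were Mmp20, Fam83h, Wdr72 and Cnnm4, of which Mmp20 and Wdr72 passed the filter on the mean through library 2. All 4 averaged from 1 to 10 CPM, where 17.4% of all targets were called higher. With a pseudocount of 5 CPM, or among genes averaging 10 CPM or more, 0 genes of the list were called higher. Mmp20, the protease of secretory-stage enamel, had 1 read in library 1 and 2.34 CPM in library 2 (ratio 13.3, interval 2.24 to 538). Wdr72, a vesicle protein needed for enamel maturation, had 1 read and 1.84 CPM (ratio 10.4, interval 1.72 to 424). Fam83h stood at 5.65 and 12.8 CPM and Cnnm4 at 4.59 and 11.3 CPM. The most abundant were the citrate transporter gene Slc13a5 (84.4 and 136 CPM), the calcium sensor gene Stim1 (71.7 and 67.8 CPM) and Fam20a (32.3 and 32.8 CPM), which are also made outside teeth. Itgb6, an epithelial integrin subunit, was lower in library 2 at 15.5 and 10.2 CPM. By an exact binomial test (two-sided) of the recovered reads, with Benjamini-Hochberg adjustment over all 23930 targets, 10 of the 20 were higher in library 2 and 1 lower, beside 19.7% of all targets called higher. That test compares 2 libraries and not conditions, and it calls abundant genes more readily.

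Regulators of the tooth germ gave a mixed picture. Of 15 measured genes of the dental epithelium, 8 averaged 1 CPM or more, and 2 were called higher in library 2, Wnt10b (7.42 and 23.8 CPM) and Bcl11b (8.83 and 24.6 CPM). Dlx3, a homeobox gene of epithelium and bone, stood at 127 and 89.0 CPM. Edaradd, Fgf4, Wnt10a and Foxi3 had no read in either library. The median difference of the 8 genes was -0.03. Of 12 dental mesenchyme genes at that level, 3 were called higher in library 2, among them Msx1 (2.12 and 21.2 CPM) and Pax9 (0.706 and 2.97 CPM), and none lower. Barx1 stood at 8.65 and 5.13 CPM and Dlx2 at 3.89 and 1.65 CPM, in the other direction. Of 12 other genes of odontoblasts, which bone cells also make, 5 were called higher in library 2 (Phex, Smpd3, Panx3, Bmp2 and Cdh11) and 1, Nes, lower. Beside these 3 lists, 11.2% of all targets averaging 1 CPM or more were called higher and 7.49% lower. Among genes averaging 10 CPM or more, 1 of the dental mesenchyme list was called higher, and at a pseudocount of 5 CPM 3 of the odontoblast list were.

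The other kallikreins differed in both directions. Klk1, a kallikrein of salivary gland, stood at 0.177 CPM in library 1 (1 read) and 20.5 CPM in library 2. It has many closely related copies in the mouse, so its value is uncertain. Klk8 stood at 5.12 and 0.949 CPM and Klk7 at 1.94 and 0.190 CPM, and both were called lower in library 2. Klk5, the neighbour of Klk4, had 7 reads in library 1 and 0 in library 2. Klk5, Klk7 and Klk8 are known from skin. Klk14 had 0 reads in library 1 and stood at 1.27 CPM in library 2, like Klk4 in direction and level.

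Markers of other tissues also differed between the libraries, and their part in the difference of the enamel and dentin genes was not tested. The counts below stand beside 11.2% of all targets averaging 1 CPM or more called higher and 7.49% lower. Airway and nasal epithelium genes summed to 60.7 and 678 CPM in libraries 1 and 2, with 7 of 7 called higher in library 2. Scgb1a1 was at 0 in both. Olfactory neuron genes summed to 149 and 855 CPM, with 9 of 12 called higher. Omp, the olfactory marker protein gene, stood at 11.1 and 247 CPM. Cartilage genes summed to 1657 and 4994 CPM, with 9 of 12 called higher, and skeletal muscle genes to 43673 and 13248 CPM, with 8 of 8 called lower. Osteoblast genes summed to 166779 and 172242 CPM, most of it Col1a1, with 5 of 9 called higher. Genes of mouth and skin epithelium summed to 111 and 138 CPM, with 2 of 9 called higher, Krt5 and Krt4, and 1 lower, Krt14. The summed enamel and dentin genes, with a ratio of 4.36, lay between cartilage at 3.01 and olfactory neurons at 5.74, and the airway and nasal list had a ratio of 11.2. Library 2 was also the deeper library. CPM scales reads to the library total, and whether depth has a part in these differences was not tested.

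**Figure D4:**
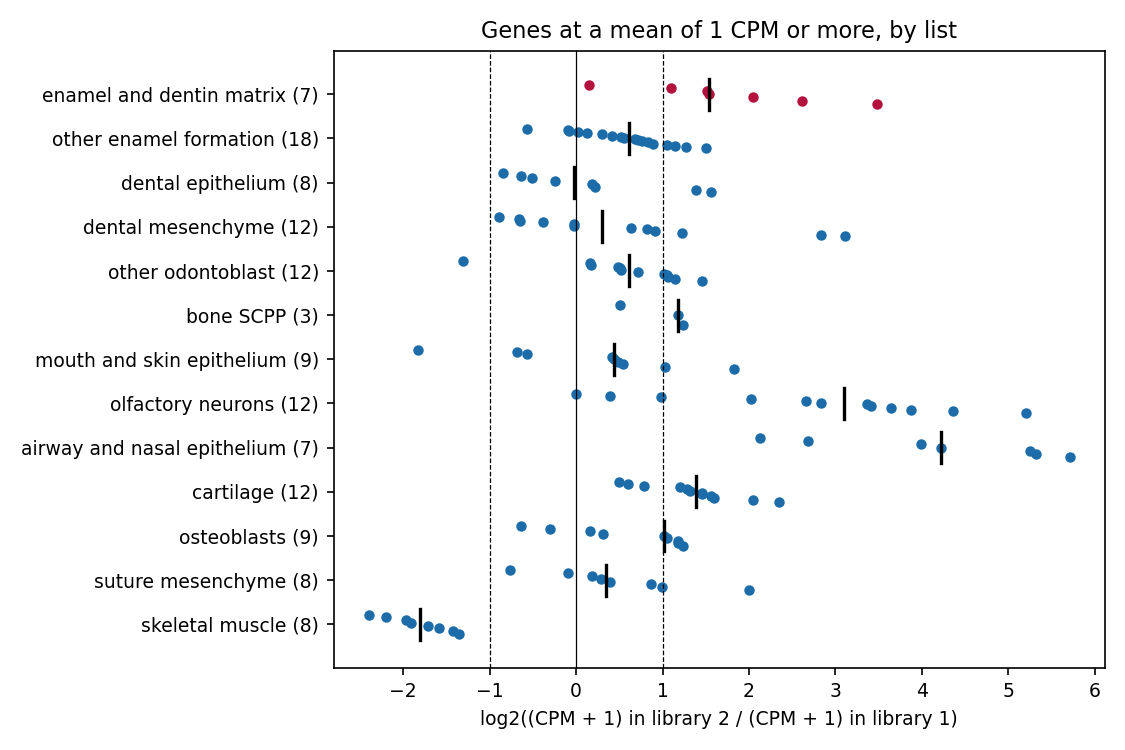
Difference between the libraries, log2((CPM + 1) in library 2 over library 1), for each gene averaging 1 CPM or more, by list, with the number of genes in brackets. Black bars are list medians and dashed lines mark 2-fold. The enamel and dentin matrix genes, chosen with this difference known, range from 0.15 to 3.48, and the median is 0.62 for other enamel formation genes and -1.81 for skeletal muscle.

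The genes most like Amelx in the 2 libraries were taken by the distance of log2(CPM + 1) in library 1 and library 2. Over these 2 values the nearest were Creb3l1 at a distance of 0.45, Slc6a6 at 0.46, Tubb3 at 0.47, Zfhx3 at 0.51 and Scarf2 at 0.55. Among them Tubb3, a neuronal tubulin gene, had the largest ratio at 67.1 and 338 CPM. Creb3l1, a transcription factor gene of collagen-secreting cells, stood at 120 and 328 CPM. With 2 libraries such likeness describes a level and a ratio and cannot group genes.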

How the data were processed

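Levels were measured by amplicon RNA sequencing in 2 libraries of suture tissue. Per the labels' protocols, libraries of total RNA were made with the Ion AmpliSeq mouse transcriptome panel, and the submitters' processing notes name genome build mm10. Aligner, counting tool and filters were not given in the sources used here. For each of 23930 targets the authors deposited a CPM value per library. All values (100%) were whole multiples of the CPM of 1 read, within 0.01 of a read, so reads were recovered. Symbols that had become dates (27) were restored from target names, and Acp4 and Odaph were read as Acpt and Gm1045.

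Levels carry exact 95% Poisson intervals and ratios Clopper-Pearson intervals. Differences used log2(CPM + 1), a pseudocount of 1 CPM, which understates changes of low genes. An exact binomial test of the reads, tested on simulated data, used Benjamini-Hochberg adjustment at 0.05. Members and the 15 other gene lists were chosen with earlier results of these data known. Named genes were the members, their annotated neighbours, genes among the 3 highest of a list, and the 5 targets nearest to Amelx. Some genes under this rule are not reported here, and other genes of the lists were named after their values were seen. Scaling alternatives came from edgeR 4.0.16 (TMM) and DESeq2 1.42.0 (size factors), run in R 4.3.3 beside Python 3.11.15 and SciPy 1.17.1.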

Additional observations from a re-analysis of the deposited data

How the results depend on the processing

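No paired analysis was possible because the 2 libraries form 1 group. Another pseudocount cannot change the direction of a difference, so it gives no check of it. Under TMM or DESeq2 size factors, or totals without the 10 highest targets, the direction stayed the same for the 8 members. For Tuft1 the ratio interval, 0.709 to 1.88, holds 1, so its direction is not settled. Of 46 values under other pseudocounts, factors or totals, 38 lay within the counting interval of the gene's ratio and 8 did not. Of these 8, 4 were of Odam, which has no read in library 1. The main value of Odam, 3.48 at a pseudocount of 1 CPM, also lay below the log2 of its lower bound of 15.4-fold. With TMM and DESeq2 factors the Odam value was 3.46, close to the main value. With a pseudocount of 5 CPM, 692 targets and 3 members were over 2-fold higher in library 2, against 1579 and 6. Among targets averaging 10 CPM or more the counts were 725 and 3, with fewer genes tested. The share of calls that favour library 2 was 59.9% and ranged from 52.0% to 62.3%. The number of members detected was 2 at 10 CPM, 8 at 1 CPM in either library, and from 5 to 8 when a library was left out. The binomial test kept its number of calls within 1.5 times under each alternative. Of 75 list counts under other settings, 50 were identical to the count given, 63 were within 1.5 times of it and 12 were not. Beside the lists named above, olfactory neuron genes called higher went from 9 to 5 among genes averaging 10 CPM or more. Those of mouth and skin epithelium went from 2 to 0 at a pseudocount of 5 CPM, and to 1 at that mean or with DESeq2 factors. Kallikreins called higher went from 1 to 2 without the 10 highest targets. The DESeq2 factors for levels and lists, and the totals without the 10 highest targets for lists, were chosen after seeing the data. Depth limits Klk4 and Amtn most, with 24 and 53 reads in library 2.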
